A study of Mus musculus with 15 samples.

Results

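Mucin genes encode the large, heavily glycosylated proteins that cover the colon surface. The 8 genes described here, Muc1, Muc2, Muc3, Muc4, Muc5b, Muc6, Muc13 and Muc20, were taken as all non-control array probes that the scanner files name as one of these genes. They are 8 of 22012 genes tested, read by 16 of 56504 probes, of which 13 passed the brightness filter (signal well above background in 5 or more of the 15 arrays); each of the 8 genes kept at least 1 such probe. The secreted mucins are 3 of the 8 (Muc2, Muc5b, Muc6) and the membrane mucins 5 (Muc1, Muc3, Muc4, Muc13, Muc20).

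Secreted, gel-forming mucins are released from goblet cells and join into the polymer network of the mucus; in the colon that network is built mainly of Muc2. Membrane mucins stay anchored in the apical membrane of epithelial cells, where they form the glycocalyx, and some of them carry cytoplasmic tails or EGF-like domains through which they bind receptor kinases and other signalling proteins. Sugar chains attached to serine and threonine residues make up much of the mass of both kinds.

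The RNA came from female Balb/cJ mice, 8 weeks old at the start, with 5 mice per group, 1 array per mouse and n = 5 for every group value below. The water group received drinking water without DSS; its treatment text mentions only water, whereas its labels give a vehicle control as its compound, so whether these mice were gavaged is not settled. Dextran sodium sulfate (DSS), a sulfated polysaccharide toxic to the colon lining, was given at 4% in the drinking water in 3 cycles of 4 days with washouts of 3 days between them, either with the filgotinib vehicle (DSS vehicle group) or with filgotinib, an inhibitor that prefers the kinase JAK1, at 30 mg/kg by gavage each day (filgotinib group). Mucosa was scraped from 30 mm of the most distal descending colon, so each sample is a mixture of epithelium and other mucosal cells, and a group with fewer cells of a type cannot be told apart from one with less RNA per cell.

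Values are log2 of the processed signal minus the 75th percentile of the same array, so 0 is the signal of that percentile and a difference of 1 is a doubling. A probe's level cannot be set against another probe's, and levels are compared only between groups. A gene "rose" or "fell" where the limma fit over all 15 arrays gave an adjusted p (Benjamini-Hochberg over all 22012 genes) under 0.05. On single arrays, 50.2% to 62.1% of all probes exceeded background clearly, and no spot was saturated. The epithelial markers (Epcam, Cdh1, Krt8, Krt18, Krt19, Cldn7, Vil1) were measured in 7 of 7 cases, and their mean level per mouse ranged from 6.96 to 7.11 (water), 7.19 to 7.32 (DSS vehicle) and 7.08 to 7.32 (filgotinib). Of 6 stomach markers, Gkn1, Gkn2, Tff2 and Pgc did not pass the filter, and Tff1 and Gif did. Gif was well above background in all mice and higher with DSS than with water (0.35, limma adjusted p = 0.0158). The 15 arrays lay on 6 slides scanned on 4 days, and no slide held all 3 groups. Water and filgotinib mice shared no slide, so differences between them cannot be told apart from slide differences. Water met DSS vehicle on 1 slide only, through DSS vehicle mouse 2.

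After the DSS cycles, transcripts of the membrane mucins Muc4 and Muc1 fell, by 1.03 and 0.61 on the log2 scale, and that of the secreted mucin Muc2 rose by 0.34. The Muc2 call was lost, and the count was 2, under quantile normalization (0.08), epithelial marker scaling (0.13), median scaling (0.30) and in the authors' deposited log2 table (0.09). With the scaling used here that is 3 of the 8 mucin genes, where 19.2% of all genes tested were called in this comparison of DSS vehicle with water. In this comparison, 1 of 3 secreted mucins rose and none fell, against 10.8% of all genes that rose, and 2 of 5 membrane mucins fell and none rose, against 8.41% of all genes that fell. The median difference was 0.34 over the secreted and 0.20 over the membrane mucins, against 0.05 over all genes. Of the 5 membrane mucins, 3 were above water without a call and the 2 called were below, so this class did not share a direction.

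With filgotinib, Muc4 was 1.06 higher than in the DSS vehicle group, the sole mucin gene of the 8 called in that comparison, where 11.3% of all genes were called, 6.79% higher and 4.53% lower. Its level then differed from the water group by 0.03. The class medians of filgotinib minus DSS vehicle were -0.11 for the secreted and -0.10 for the membrane mucins, against 0.00 for all genes. Muc1 was the sole mucin gene called between filgotinib and water, at 0.71 below the water mean, where 9.83% of all genes were called, 6.42% higher and 3.41% lower. These comparisons share their groups in pairs, so their values are not independent of each other.

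**Figure D1:**
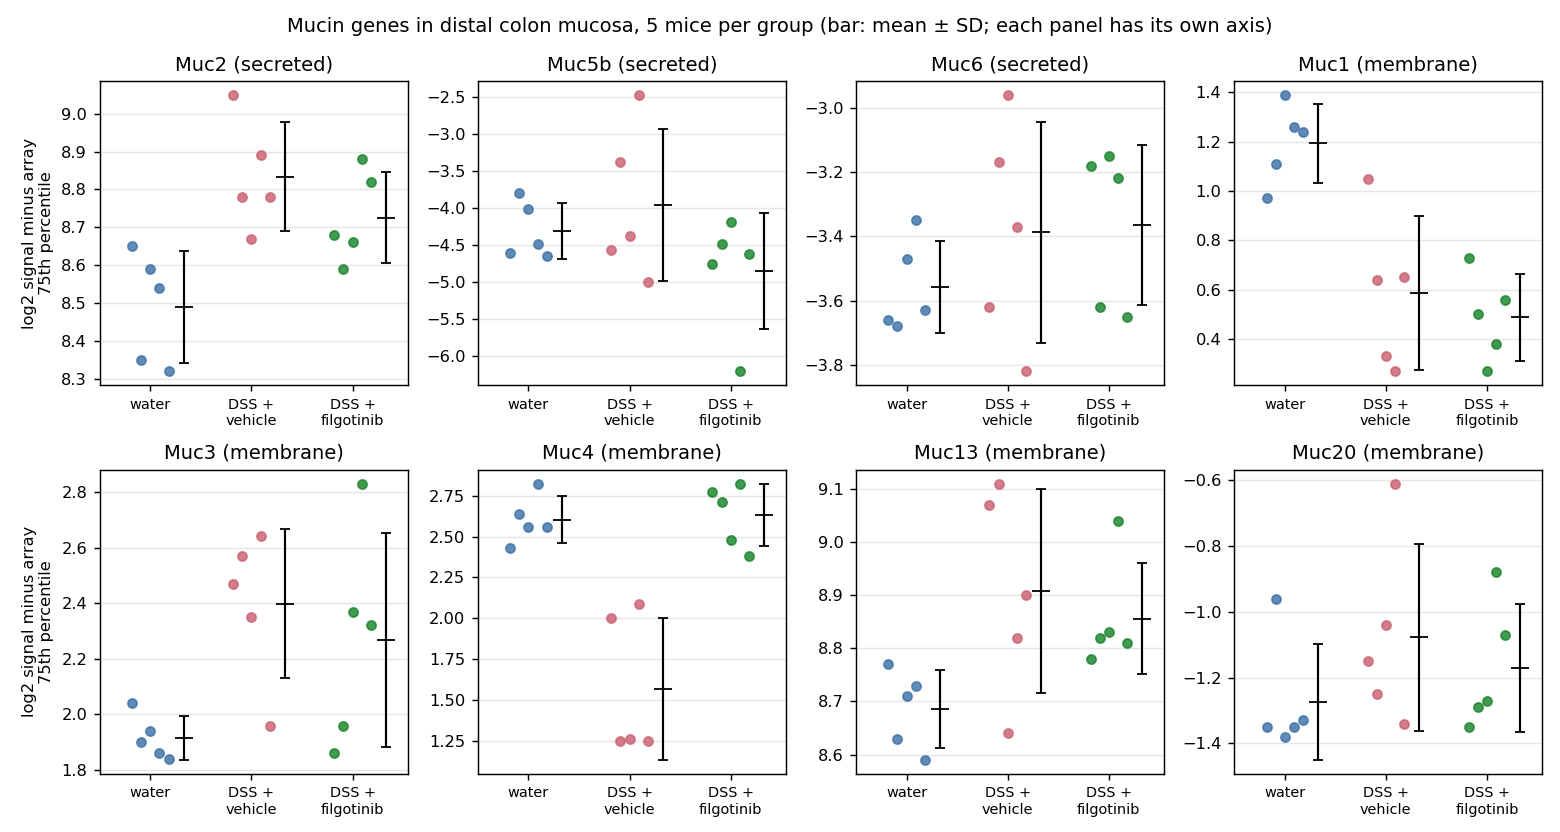
Level of each mucin gene in every mouse (log2 signal minus the array's 75th percentile) by group, with the mean and SD of 5 mice beside the points; each panel has its own axis. Muc4 in the DSS vehicle mice lies between 1.25 and 2.09, below every mouse of the water and filgotinib groups, and Muc1 is low in both DSS groups.

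Muc4, a membrane mucin with EGF-like domains that binds the receptor ErbB2, gave levels of 2.43, 2.64, 2.56, 2.82 and 2.56 in water mice 1 to 5. In the DSS vehicle mice its levels were 2.00, 1.25, 1.26, 2.09 and 1.25. The filgotinib mice stood at 2.77, 2.71, 2.48, 2.82 and 2.38. All DSS vehicle mice thus lay below all others, with mice 1 and 4 near 2 and mice 2, 3 and 5 close together near 1.25, while the water and filgotinib ranges overlapped. The group means were 2.60 ± 0.14 in water, 1.57 ± 0.44 in DSS vehicle and 2.63 ± 0.19 in filgotinib mice (SD). DSS vehicle was below water by a log2 difference of -1.03 ± 0.17 (SE), which is 2.04-fold lower (limma adjusted p = 0.00156). Filgotinib was above DSS vehicle by 1.06 ± 0.17 (SE), which is 2.08-fold higher (limma adjusted p = 0.00295). Filgotinib and water differed by 0.03, with a 95% interval of -0.34 to 0.40 (limma adjusted p = 0.938), an interval that does not reach the DSS difference. Groups without overlap were found for 16% of all genes in DSS vehicle against water and for 7.99% in filgotinib against DSS vehicle.

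The Muc4 change was read by several probes along the transcript. The probes lie on chromosome 16, plus strand (build mm9), at chr16:32774896-32774955, chr16:32778845-32778904 and chr16:32782278-32782337, which the files place from bases 9726, 10251 and 11077 of the transcript. The first and the second are printed here, 5′ to 3′, because they show that separate stretches of the transcript moved together.

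Muc4, probe at base 9726: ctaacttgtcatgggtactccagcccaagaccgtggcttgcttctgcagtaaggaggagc

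Muc4, probe at base 10251: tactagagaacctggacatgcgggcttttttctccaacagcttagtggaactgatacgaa

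The probe at base 11077 is the brightest and stands for the gene above. The probe at base 9726, well above background in 3 of 5 DSS vehicle mice and in all others, gave -3.36 ± 0.29 in water, -4.40 ± 0.47 in DSS vehicle and -3.32 ± 0.34 in filgotinib mice (SD), and the probe at base 10251 gave -1.21 ± 0.27, -2.50 ± 0.51 and -1.56 ± 0.46 in the same order. In the fit over 33466 probes, DSS vehicle minus water was -1.04 at base 9726 (limma adjusted p = 0.00634), -1.30 at base 10251 (0.00385) and -1.03 at base 11077 (0.00161), against 17.5% of all probes called. Filgotinib minus DSS vehicle was 1.08 (limma adjusted p = 0.00986), 0.95 (0.0309) and 1.06 (0.00335) at the same 3 probes, against 9.85% of all probes called. Against water the filgotinib differences were 0.04, -0.35 and 0.03, with none of the 3 called, where 8.61% of all probes were. The probes thus gave the same direction and call in both comparisons, although at single mice they overlapped more than the brightest probe did. At base 9726, DSS vehicle mouse 1 stood at -3.79, just above water mouse 1 at -3.82. At base 10251, DSS vehicle mouse 4 stood at -1.89, above filgotinib mice 4 and 5 at -1.97 and -2.08. A further probe named Muc4, without a position in the files, was well above background on 0 arrays and has no value here.

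**Figure D2:**
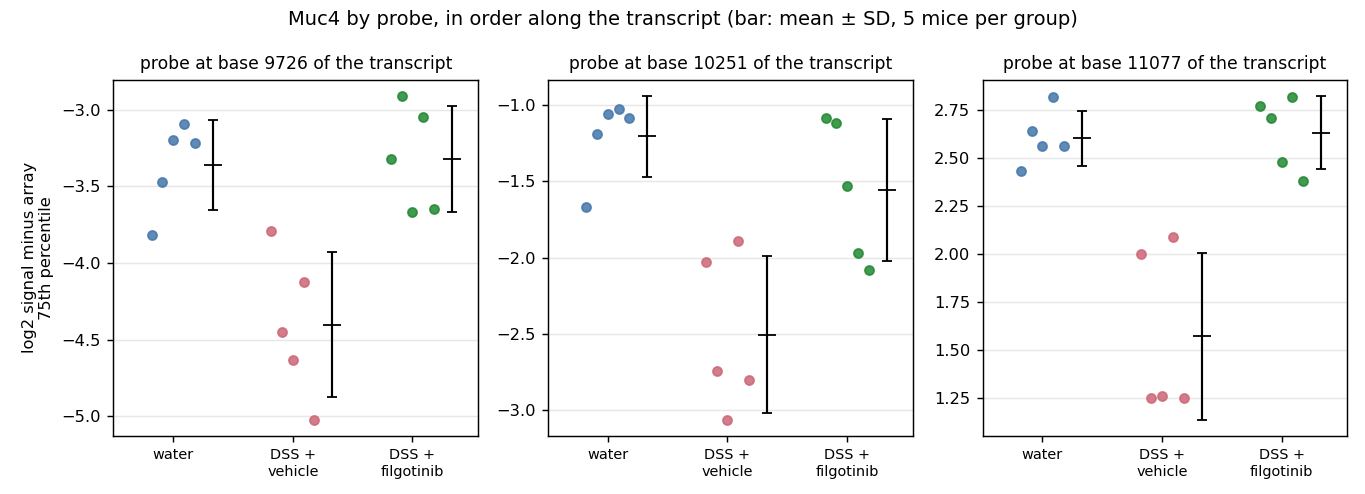
Level of Muc4 (log2 signal minus the array's 75th percentile) in every mouse at the 3 probes that passed the filter, in order of their start in the transcript, with the mean and SD of 5 mice per group. At each probe the DSS vehicle mean is the lowest of the 3 groups, and the filgotinib mean at bases 9726 and 11077 is within 0.04 of the water mean.

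The Muc4 calls held without any single mouse: leaving out each of the 15 mice gave -1.16 to -0.95 for DSS vehicle minus water and 0.98 to 1.19 for filgotinib minus DSS vehicle, called in 15 of 15 cases each. Scaled to the 7 epithelial markers in place of the array percentile, the differences were -1.24 and 1.07. With the slide as a fixed block, where DSS vehicle and water meet on 1 slide only, the difference from water was -1.31 (limma adjusted p = 0.132) and that between filgotinib and DSS vehicle 0.96 (limma adjusted p = 0.0694). Among the arrays of scan day 1 alone, which held 3 water, 3 DSS vehicle and 4 filgotinib mice, DSS vehicle minus water was -0.85 (limma adjusted p = 0.0522) and filgotinib minus DSS vehicle 0.89 (limma adjusted p = 0.0347). Markers of other cells were read in the same mice. The summed level of 6 fibroblast and matrix markers ranged from 1.82 to 4.59 in water, 3.48 to 5.94 in DSS vehicle and 0.65 to 5.64 in filgotinib mice, with 0 of 6 called, and that of 7 leukocyte markers from 6.33 to 6.53, 6.58 to 6.94 and 6.17 to 6.78, with 2 of 7 higher in DSS vehicle than in water, where 10.8% of all genes were higher. The sum of 6 smooth muscle markers ranged from 4.51 to 4.95, 4.84 to 6.60 and 4.67 to 5.53, with 0 of 6 called. Such sums are set mostly by the brightest markers of a list. The leukocyte markers called were Laptm5 (1.46, limma adjusted p = 0.039) and Coro1a (1.31, 0.0228). Median differences of DSS vehicle from water were 1.69 for fibroblast and matrix, 0.59 for leukocyte and 1.24 for smooth muscle markers (all genes 0.05). For filgotinib minus DSS vehicle the medians were -1.59, -0.42 and -0.18 (all genes 0.00). The part of these markers in the Muc4 result was not tested.

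The Muc4 gene starts, in the RefSeq promoter table (GRCm38.p6), at the end of the window chr16:32735636-32735885 on the plus strand, whose 250 bases before the start are printed because the gene moved in both comparisons.

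Muc4, before the start: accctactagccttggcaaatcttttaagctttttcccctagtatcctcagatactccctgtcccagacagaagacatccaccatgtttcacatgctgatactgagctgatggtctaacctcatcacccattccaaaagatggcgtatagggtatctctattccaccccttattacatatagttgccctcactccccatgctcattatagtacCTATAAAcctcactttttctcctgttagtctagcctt

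The capitals mark a TATA box match (TATAAA), from base 36 before the start, within a CDX match (TTTATNG, here on the opposite strand) from base 37. CDX factors are homeobox regulators of intestinal identity. Matches to TATAAA and TTTATNG stood in 12.4% and 9.81% of the 32851 promoter windows of the same length. The STAT motif TTCNNNGAA, of the factors that JAK kinases activate, has no match in these 250 bases on either strand, and it stood in 7.02% of windows. Among the 8 windows that the table holds for 7 of the 8 mucin genes, that motif matched in 1, of Muc13. All motifs were searched on both strands, and a match is a description of the letters only.

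Muc1, a membrane mucin whose cytoplasmic tail takes part in signalling, gave levels of 0.97, 1.11, 1.39, 1.26 and 1.24 in water mice 1 to 5. The DSS vehicle mice gave 1.05, 0.64, 0.33, 0.27 and 0.65. The filgotinib mice gave 0.73, 0.50, 0.27, 0.38 and 0.56. DSS vehicle mouse 1 lay within the water range and the other 4 below it, whereas every filgotinib mouse lay below every water mouse. The means were 1.19 ± 0.16 in water, 0.59 ± 0.31 in DSS vehicle and 0.49 ± 0.17 in filgotinib mice (SD). Muc1 fell by 0.61 ± 0.14 (SE) with DSS, 1.52-fold (limma adjusted p = 0.00886). It was 0.71 ± 0.14 (SE) below water with filgotinib, 1.63-fold (limma adjusted p = 0.0123), with no overlap of the groups, as for 9.57% of all genes. Filgotinib and DSS vehicle differed by -0.10, with a 95% interval of -0.40 to 0.20 (limma adjusted p = 0.676), so a return of the size seen for Muc4 lies outside the interval.

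The probe of Muc1 lies at chr3:89036007-89036974 (mm9, plus strand), from base 1854 of the transcript, and is printed as the sole reading of this gene on the array. Its 60 bases span 968 bases of the genome, so it crosses a splice junction.

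Muc1, probe at base 1854: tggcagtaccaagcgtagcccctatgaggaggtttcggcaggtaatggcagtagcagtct

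The fall of Muc1 was called without each of the 15 mice, at -0.72 to -0.53 for DSS vehicle and -0.77 to -0.65 for filgotinib against water. It was not called with the slide as a fixed block (-0.67, limma adjusted p = 0.302, and -0.72, 0.613), nor within scan day 1 (-0.46, 0.157, and -0.57, 0.091). The slide-block value of filgotinib against water is indirect, through the DSS vehicle mice, because water and filgotinib mice shared no slide. The difference of filgotinib from water was also just past the threshold when arrays were scaled to their median (-0.67, limma adjusted p = 0.0523). Before its start, the 250 bases of Muc1 in the RefSeq table (GRCm38.p6, chr3:89228806-89229055, plus strand) hold a TATAAA match from base 31 and GGGCGG, the SP1 motif, from bases 91 and 49, in capitals below. GGGCGG stood in 32.7% of all windows.

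Muc1, before the start: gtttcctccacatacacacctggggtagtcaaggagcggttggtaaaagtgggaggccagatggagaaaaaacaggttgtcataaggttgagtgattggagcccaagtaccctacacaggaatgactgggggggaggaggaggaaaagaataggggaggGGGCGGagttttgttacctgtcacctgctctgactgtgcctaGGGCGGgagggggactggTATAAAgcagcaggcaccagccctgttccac

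**Figure D3:**
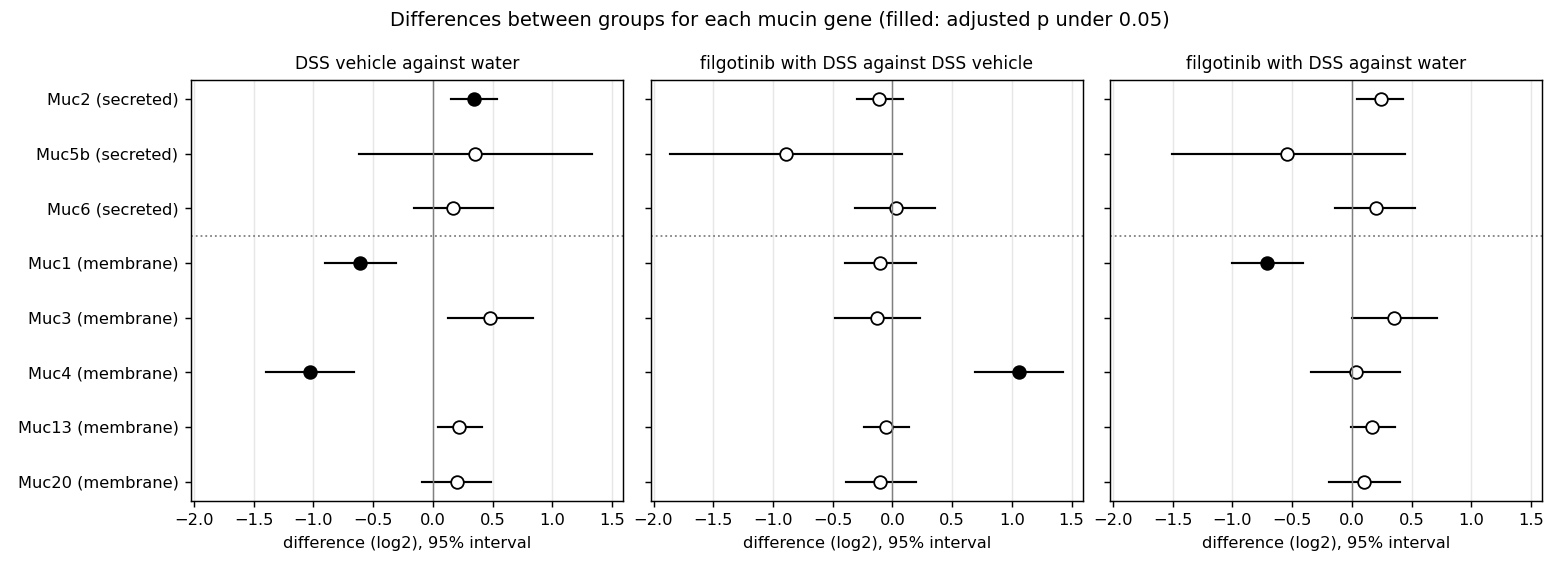
Fitted log2 difference of each mucin gene in the 3 comparisons, with 95% intervals from the limma fit over 15 arrays; filled points have an adjusted p under 0.05, and the dotted line parts secreted from membrane mucins. Filled points are Muc2, Muc1 and Muc4 in DSS vehicle against water, Muc4 alone in filgotinib against DSS vehicle, and Muc1 alone in filgotinib against water.

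Muc3, a membrane mucin of the enterocyte brush border, gave 2.04, 1.90, 1.94, 1.86 and 1.84 in water mice 1 to 5. Its levels in DSS vehicle mice were 2.47, 2.57, 2.35, 2.64 and 1.96, and in filgotinib mice 1.86, 1.96, 2.37, 2.83 and 2.32. In DSS vehicle mice, 4 of 5 lay above the whole water range and mouse 5 within it, and filgotinib mice 1 and 2 lay within the water range and the other 3 above. The difference from water was 0.48 ± 0.17 (SE) with a 95% interval of 0.13 to 0.84 in DSS vehicle mice and did not pass (limma adjusted p = 0.0556). It passed without DSS vehicle mouse 5 (limma adjusted p = 0.0237), filgotinib mouse 1 (0.0415) or filgotinib mouse 4 (0.0205), and under 5 of 15 other settings, among them normexp background correction (0.52, limma adjusted p = 0.0268). Filgotinib differed from DSS vehicle by -0.13 (95% interval -0.48 to 0.23) and from water by 0.35 (limma adjusted p = 0.176).

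The brighter probe of Muc3 lies at chr5:137626469-137626528 and the dimmer at chr5:137634621-137634680, both on the minus strand (mm9). They are printed because both are repetitive: the capitals mark ACNACN, letters that spell back-to-back threonine codons if read in frame (neither the frame nor the part of the protein was checked).

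Muc3, brighter probe: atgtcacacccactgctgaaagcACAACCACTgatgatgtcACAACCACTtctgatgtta

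Muc3, dimmer probe: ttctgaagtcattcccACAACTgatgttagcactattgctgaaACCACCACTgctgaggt

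The brighter probe holds 4 overlapping ACNACN matches and the dimmer 3, counts that 0.0584% and 0.26% of the 56504 probes reach; 14% of probes hold at least 1. Repeats of this kind can recur within a locus, so the place in the gene that each probe reads is uncertain. The dimmer probe gave -0.60 ± 0.09, -0.32 ± 0.23 and -0.48 ± 0.31 in water, DSS vehicle and filgotinib mice (SD), and DSS vehicle minus water of 0.29 (limma adjusted p = 0.168), the same direction as the brighter one without a call.

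Muc13, a membrane mucin with EGF-like domains, had levels of 8.59 to 8.77 in water mice (median 8.71). The DSS vehicle mice gave 9.07, 9.11, 8.64, 8.82 and 8.90, and the filgotinib mice 8.78, 8.82, 8.83, 9.04 and 8.81. DSS vehicle mouse 3 lay within the water range and the other 4 above it. All filgotinib mice lay above all water mice by a margin as small as 0.01, where 9.57% of all genes had no overlap of these groups. The differences from water were 0.22 ± 0.09 (limma adjusted p = 0.086) and 0.17 ± 0.09 (0.206), and filgotinib minus DSS vehicle was -0.05, with a 95% interval of -0.24 to 0.14. The DSS difference passed without DSS vehicle mouse 3 (limma adjusted p = 0.0247) and with the scan day as a block (0.30, limma adjusted p = 0.0371), and was -0.03 after quantile normalization. The probes of Muc13 disagreed: that at chr16:33819909-33819968 gave the values above, and that at chr16:33819463-33819522 gave 6.90 ± 0.11 in water, 6.89 ± 0.28 in DSS vehicle and 6.87 ± 0.14 in filgotinib mice (SD).

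Muc20, a membrane mucin that binds the receptor Met, ranged from -1.38 to -0.96 with water, -1.34 to -0.61 with DSS and vehicle, and -1.35 to -0.88 with DSS and filgotinib. The groups overlapped throughout, and none of the comparisons passed: DSS vehicle minus water was 0.20 (95% interval -0.09 to 0.49), filgotinib minus DSS vehicle -0.10 (-0.39 to 0.20) and filgotinib minus water 0.10 (-0.19 to 0.40). Muc20 neighbours Muc4 on the opposite strand. Its passing probe, at chr16:32786143-32786202, lies beyond the last Muc4 probe, while a second Muc20 probe at chr16:32777512-32777571, between the Muc4 probes at bases 9726 and 10251, was well above background on 1 array and has no test.

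Among the secreted mucins, Muc2, the gel-forming mucin of colonic goblet cells, gave 8.65, 8.35, 8.59, 8.54 and 8.32 in water mice 1 to 5. The DSS vehicle mice gave 9.05, 8.78, 8.67, 8.89 and 8.78, and the filgotinib mice 8.68, 8.59, 8.66, 8.88 and 8.82. All DSS vehicle mice lay above all water mice, the nearest pair 8.67 and 8.65, where 16% of all genes had no overlap of these groups. The filgotinib mice overlapped both groups. Muc2 rose by 0.34 ± 0.09 (SE) with DSS, 1.27-fold (limma adjusted p = 0.0176). Filgotinib was 0.24 ± 0.09 above water (limma adjusted p = 0.103) and 0.11 below DSS vehicle, at -0.11 with a 95% interval of -0.30 to 0.09 (limma adjusted p = 0.466).

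The rise of Muc2 depended on how the arrays were scaled. It was 0.08 after quantile normalization (limma adjusted p = 0.477), 0.09 in the authors' deposited log2 table (0.437), 0.13 relative to the 7 epithelial markers (0.162) and 0.30 with scaling to the median (0.123), and passed under none of these. The epithelial markers themselves were 0.21 higher in DSS vehicle than in water mice, with 4 of 7 called. Scaling to them moved the median difference of all genes from 0.05 to -0.16. With the slide as a fixed block Muc2 was at 0.33 (limma adjusted p = 0.42) and within scan day 1 at 0.39 (0.0796). It was called without each of the 15 mice, at 0.29 to 0.38. The other probe of Muc2, at chr7:148883009-148883068 (plus strand, base 1986 of the transcript), gave 2.52 ± 0.16 in water, 3.04 ± 0.37 in DSS vehicle and 2.69 ± 0.26 in filgotinib mice (SD), with DSS vehicle minus water of 0.52 (limma adjusted p = 0.0451). There the groups overlapped: DSS vehicle mouse 3, at 2.61, lay below water mice 1 and 3, at 2.63 and 2.71. The probe is printed to show the more 5′ stretch that moved the same way as the brightest probe, at chr7:148940536-148940595, with ACNACN in capitals.

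Muc2, probe at base 1986: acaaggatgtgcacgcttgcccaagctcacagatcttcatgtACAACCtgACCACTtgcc

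The Muc2 start, in the RefSeq table (GRCm38.p6, window chr7:141690090-141690339, plus strand), is preceded by the following 250 bases, with the matches in capitals.

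Muc2, before the start: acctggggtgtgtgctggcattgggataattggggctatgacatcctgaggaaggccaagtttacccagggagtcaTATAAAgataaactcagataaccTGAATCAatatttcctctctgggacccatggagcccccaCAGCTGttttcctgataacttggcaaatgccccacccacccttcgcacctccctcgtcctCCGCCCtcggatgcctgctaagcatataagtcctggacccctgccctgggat

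The matches are TATAAA from base 174 before the start, the AP-1 motif TGANTCA from base 151, the E-box CAGCTG from base 112 and GGGCGG, on the opposite strand, from base 52. TGANTCA and CAGCTG stood in 6.75% and 13% of all windows. The NF-kB motif had no match in any of the mucin windows and stood in 0.14% of all windows, and the short ETS motif GGAA stood in 93.4%.

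**Figure D4:**
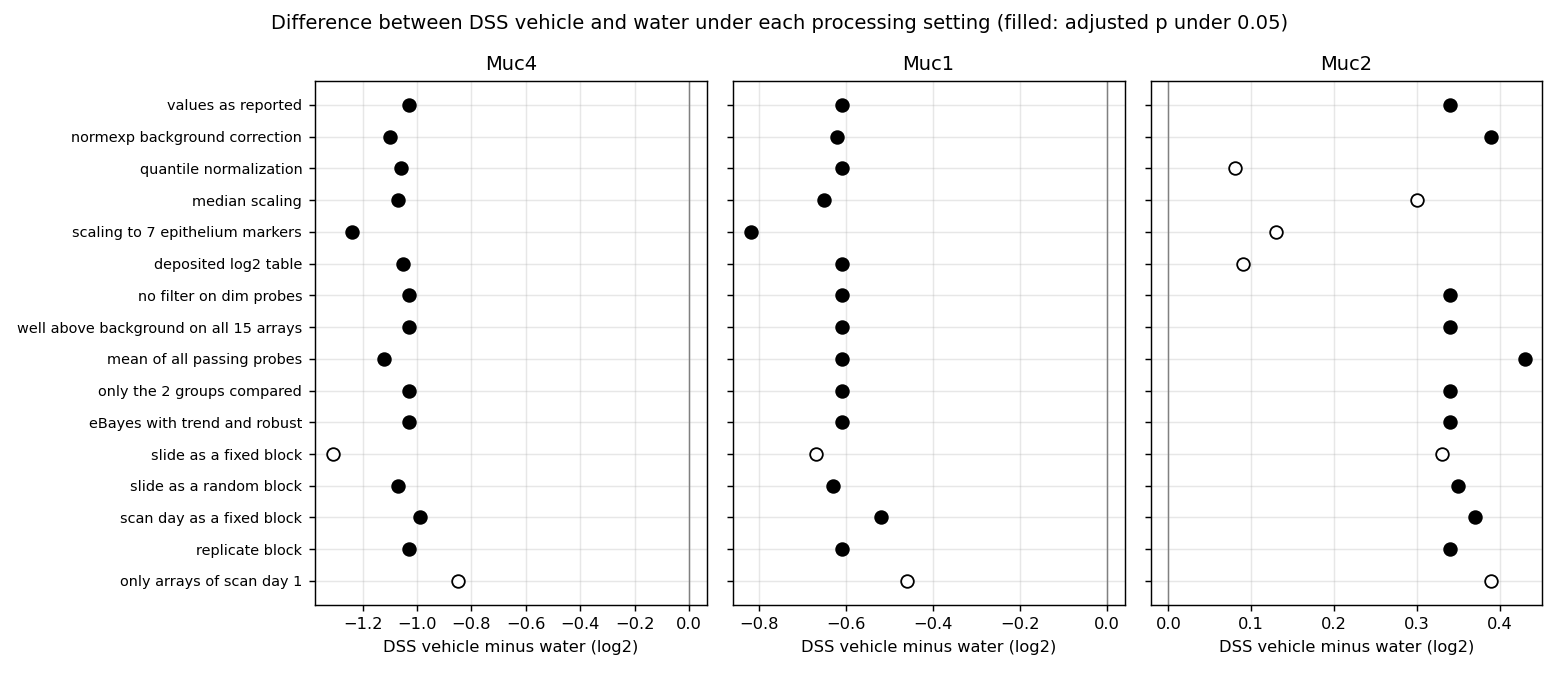
DSS vehicle minus water (log2) for Muc4, Muc1 and Muc2 under each processing setting; filled points have an adjusted p under 0.05. Muc4 and Muc1 stay below 0 in every setting shown and lose the call with the slide as a fixed block and within scan day 1, while Muc2 lies between 0.08 and 0.43.

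Muc5b, the gel-forming mucin of airway and salivary glands, was near background: its passing probe was well above background in 5 of 5 water mice, 3 of 5 DSS vehicle mice and 1 of 5 filgotinib mice. The readings ranged from -4.64 to -3.80 with water, -5.00 to -2.47 with DSS and vehicle, and -6.20 to -4.18 with DSS and filgotinib. The spread of DSS vehicle mice, with an SD of 1.02, covered the water range, and the differences of 0.35 from water (95% interval -0.62 to 1.33) and of -0.89 between filgotinib and DSS vehicle (-1.86 to 0.08) did not pass (limma adjusted p = 0.616 and 0.215). The latter difference was -0.17 with normexp background correction, -0.55 in the authors' deposited log2 table, -0.52 without DSS vehicle mouse 4 and -0.55 without filgotinib mouse 4. Muc6, a mucin of gastric glands and pancreatic ducts, was well above background on all 15 arrays. It ranged from -3.68 to -3.35 with water, -3.82 to -2.96 with DSS and vehicle, and -3.65 to -3.15 with DSS and filgotinib, with all groups overlapping and differences from water of 0.17 (95% interval -0.16 to 0.50) and 0.20 (-0.14 to 0.53). With Muc2 and Muc5ac, these genes lie in 1 cluster on chromosome 7, where the probes of the 4 genes span 237 kb (mm9). Muc5ac, also gel-forming, gave -4.44 ± 0.20 in water, -4.30 ± 0.51 in DSS vehicle and -4.38 ± 0.52 in filgotinib mice (SD), well above background in 4, 3 and 1 of 5 mice and with no call, so of these 4 genes Muc2 was the one called. The share of all probes well above background also ranged lower in the DSS groups, and its part in the Muc5b and Muc5ac detection was not tested.

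Of 10 other mucin-related genes listed, 3 passed the filter, and 1 of them, Ovgp1 (oviductin), fell with DSS, at -1.08 ± 0.20 (SE; limma adjusted p = 0.00283), where 8.41% of all genes fell. Ovgp1 was well above background in 3 of 5 DSS vehicle mice. Muc19, a further gel-forming mucin, gave -2.55 ± 0.18 in water and -2.55 ± 0.13 in DSS vehicle mice (SD). Probes of Muc15, Mucl1 and Mucl2 did not pass the filter, and no probe was named Muc12, Muc16, Muc17 or Muc21.

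The genes most like each mucin in their mouse-by-mouse pattern were found by correlation. Among 18201 genes well above background on all arrays, those with the highest Pearson r with Muc2 over the 15 arrays were Tff3, a trefoil peptide secreted with mucin (r = 0.96), Zg16, a lectin of the mucus that binds bacteria (0.95), and Npdc1 (0.95). After subtraction of the group means the values were 0.93, 0.89 and 0.87, so the likeness held among mice of the same group as well. For Muc4 the nearest genes were 8430430B14Rik (0.92), Mia (0.91) and H2bc21 (0.90), and within groups these fell to 0.57, 0.66 and 0.53. For Muc1 they were Star (0.94), Ganc (0.91) and Esco1 (0.91), for Muc3 Actr2, Nckap1 and Col17a1 (0.94 each), and for Muc13 Atp5j (0.92), Kdm5c (0.91) and Atp10b (0.91). For Muc20 they were Yipf2 (0.88), 1810008I18Rik (0.87) and Pgghg (0.86), and for Muc6 Rbp3 (0.89), Gm10523 (0.88) and an unnamed transcript (0.89). These genes were picked as the highest of many, and the arrays share their scaling, slides and cell mixture, so the values are descriptions without a test.

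**Figure D5:**
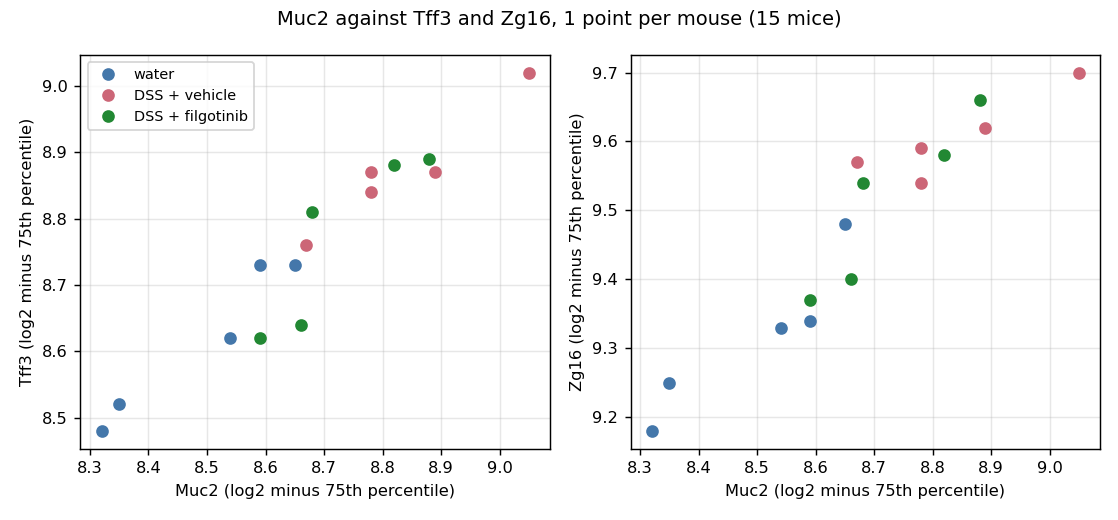
Level of Muc2 (x axis) against Tff3 and Zg16 (y axes), all as log2 signal minus the array's 75th percentile, with 1 point for each of 15 mice coloured by group. The points rise from lower left to upper right (r = 0.96 for Tff3 and 0.95 for Zg16), with exceptions between neighbouring mice, and DSS vehicle mouse 1 is highest for all 3 genes.

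Of 10 secreted proteins that share the mucus layer with Muc2, 6 rose and 0 fell with DSS, where 10.8% of all genes rose, with a median difference of 0.26 against 0.05 over all genes. The mean of the 7 epithelial markers was 0.21 higher in the same comparison, and its part in these counts was not tested. Itln1, a lectin that binds microbial sugars, rose by 2.46 ± 0.38 (SE; limma adjusted p = 0.00104), Retnlb, a goblet cell peptide active against bacteria, by 1.94 ± 0.40 (0.0051) and Agr2, a disulfide isomerase needed to fold mucins, by 0.41 ± 0.11 (0.0183). With filgotinib, 2 of 10 were lower than in DSS vehicle mice, where 4.53% of all genes were lower: Itln1 by a difference of -2.62 (limma adjusted p = 0.00157) and Retnlb of -2.09 (0.0062). Agr2 stayed 0.41 above water (limma adjusted p = 0.0329). Itln1 and Retnlb thus moved opposite to Muc4 in the comparisons of DSS vehicle with water and with filgotinib, while Agr2 and Muc2 gave differences of 0.00 and -0.11 between filgotinib and DSS vehicle.

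Of 26 genes listed for mucin-type O-glycosylation, mostly but not all enzymes that build sugar chains, 24 were measured. With DSS 9 rose and 0 fell, where 10.8% of all genes rose and 8.41% fell. The median difference of the list was 0.21, beside a difference of 0.21 in the epithelial marker mean (4 of 7 called), whose part was not tested. St3gal1, which caps core chains with sialic acid, rose by 1.65 ± 0.28 (SE; limma adjusted p = 0.00177), B3gnt6, the core 3 synthase of the colon, by 1.05 ± 0.19 (0.00252) and Fut2, which adds terminal fucose, by 0.99 ± 0.17 (0.00156). With filgotinib 4 of 24 were lower than in DSS vehicle mice and 0 higher, against 4.53% and 6.79% of all genes, with the largest differences for Fut2 (-0.94, limma adjusted p = 0.00428), St3gal1 (-0.94, 0.0472) and B3gnt6 (-0.76, 0.0225). Against water 1 of 24 was higher, where 6.42% of all genes were, Galnt3, an enzyme that starts the chains (0.35, limma adjusted p = 0.0435).

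Of 12 goblet cell fate and secretory factors, Creb3l4 rose (0.29, limma adjusted p = 0.0462) and Foxa2, a forkhead factor of the gut epithelium, fell (-0.29, 0.0356) with DSS, shares near those of all genes (10.8% and 8.41%). Foxa2 was the 1 member of 12 that was higher with filgotinib than with vehicle (0.39, limma adjusted p = 0.0143), where 6.79% of all genes were higher. Against water, 4 of 12 were higher and 1 lower with filgotinib, against 6.42% and 3.41% of all genes, the largest being Spdef, a driver of goblet cell maturation (0.44, limma adjusted p = 0.0219), Creb3l4 (0.39, 0.0255) and Xbp1, a factor of secretory cells (0.34, 0.0184). The epithelial marker mean was 0.19 higher in filgotinib than in water mice (2 of 7 called), and its part was not tested. Water and filgotinib mice also shared no slide. Of 12 genes of mucus release and unfolding, Cftr, the chloride and bicarbonate channel that helps mucins unfold, was the sole call after DSS, at -0.63 ± 0.14 (SE; limma adjusted p = 0.00634), and with filgotinib against vehicle, at 0.58 ± 0.14 (0.0164). These calls are 1 of 12 each, near the shares of all genes that fell with DSS (8.41%) and were higher with filgotinib (6.79%). Cftr levels in water mice 1 to 5 were 3.22, 3.41, 3.09, 3.30 and 3.32. DSS vehicle mice gave 2.39, 2.38, 2.99, 2.95 and 2.46, and filgotinib mice gave 3.01, 3.38, 2.99, 3.29 and 3.41. As with Muc4, every DSS vehicle mouse lay below every water mouse, where 16% of all genes had no overlap of these groups. Unlike Muc4, Cftr overlapped between DSS vehicle and filgotinib mice, with mouse 3 of each group at 2.99. Slc12a2, the chloride importer of crypt cells, was lower with filgotinib than in water (-0.74, limma adjusted p = 0.026). It was the 1 call of the 12 in that comparison, where 3.41% of all genes were lower.

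Among 8 binding partners of membrane mucins, 3 rose with DSS and 0 fell, where 10.8% of all genes rose: Erbb3 (0.49 ± 0.12 SE, limma adjusted p = 0.013), its partner kinase Erbb2 (0.33 ± 0.08, 0.0152) and Lgals3, a galectin that binds mucin sugars (0.32 ± 0.09, 0.0264). Erbb2 and Erbb3 rose in the group in which Muc4 fell, whereas Egfr, also an ErbB receptor, did not (-0.06, limma adjusted p = 0.642). A link to Muc4 was not tested. The epithelial marker mean was 0.21 higher in the same comparison (4 of 7 called), and its part was not tested. With filgotinib against vehicle 0 of 8 were called, where 11.3% of all genes were. Erbb3 was at -0.29 (limma adjusted p = 0.129), Erbb2 at -0.15 (0.254) and Egfr at 0.27 (0.0528). Against water 1 of 8 was higher, Lgals3 (0.39, limma adjusted p = 0.0224), where 6.42% of all genes were higher.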

How the data were processed

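Scanner files of 15 one-colour arrays hold, per the file headers, the intensity of each spot after background subtraction and detrending by Agilent Feature Extraction 11.5.1.1. The authors also deposited a table of log2 values, used as an alternative; its normalization and filter are not stated in those sources. Control spots and 101 probes with an outlier mark were left out. Values are log2 intensity minus each array's 75th percentile. Probes clearly over background in 5 or more arrays were kept, and the brightest one stood for its gene (22012 genes). Groups were compared in a single limma 3.58.1 fit (lmFit, eBayes, R 4.3.3) over 15 arrays, two-sided, with Benjamini-Hochberg adjustment; a call is an adjusted p under 0.05. The code was tested on simulated data. The number of arrays limits the precision.

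The mucin genes, gene lists, motifs and settings were chosen with earlier results of these data known. Named are all 8 mucin genes, up to 3 called members per list with the largest change, and the 3 genes most correlated with each mucin that was well above background on all arrays. Probe coordinates are those of the files (mm9); exon and UTR annotation was not used. Promoters are from RefSeq (GRCm38.p6). Alternatives were scaling, background correction, filter, probe choice, blocks for slide, scan day and replicate number, and each mouse left out.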

Additional observations from a re-analysis of the deposited data

Results flagged for a closer look

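Of 24 groups of 5 mice (8 genes in 3 groups), 3 held a mouse whose gap to the nearest other exceeded Dixon's 95% critical value; chance gives about 1 in 20 groups. Filgotinib mouse 4 stood apart for Muc13, highest at 9.04 with a gap of 0.81 of the group's range, and for Muc5b, lowest at -6.20 with a gap of 0.72, a reading near background. Water mouse 2 stood apart for Muc20, highest at -0.96 with a gap of 0.88.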

How the results depend on the processing

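Leaving out each mouse in turn gave 3 to 4 mucin genes called in DSS vehicle against water, 1 throughout in both comparisons of the filgotinib group, and no call of Muc4, Muc1 or Muc2 was lost. With the slide as a fixed block 0 mucin genes were called in each of the 3 comparisons, where only 84, 437 and 2 of all genes were called; within slide 4 (water mice 3 and 5, DSS vehicle mouse 2) Muc4 differed by -1.31, Muc1 by -0.67, Muc2 by 0.33 and Muc13 by 0.46, and within slide 2 filgotinib minus DSS vehicle was 0.96 for Muc4 and -0.27 for Muc2. Within scan day 1, chosen after seeing the data, 0 mucin genes were called in DSS vehicle against water and 0 in filgotinib against water (1619 and 696 of all genes), and with median scaling 0 in filgotinib against water (521 of all genes). The fewer arrays and the lost degrees of freedom belong to these alternatives; the cause of the losses under other scalings was not tested.

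The replicate block changed no mucin call: Muc4 was -1.03 (limma adjusted p = 0.00245) and 1.06 (0.0055), Muc1 -0.61 (0.0217) and -0.71 (0.0357), Muc2 0.34 (0.0248), while the counts of all genes called in filgotinib against DSS vehicle and against water were 1608 and 788. Same-numbered mice correlated at -0.52 to 0.53, so the numbers do not pair them.

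Some differences that were not called in the values as reported changed sign. For filgotinib minus water these were Muc4 with normexp (-0.10), quantile (-0.04), epithelial scaling (-0.17), the deposited table (-0.04), the mean of probes (-0.09), slide as a fixed (-0.36) or random block (-0.01) and scan day as a block (-0.03); Muc13 with quantile (-0.04), epithelial scaling (-0.02) and the deposited table (-0.05); Muc20 with epithelial scaling (-0.09) and slide (-0.18); and Muc5b with normexp (0.16) and slide (0.36). For DSS vehicle minus water they were Muc13 with quantile (-0.03) and the deposited table (-0.02), Muc6 with epithelial scaling (-0.04) and in scan day 1 (-0.04) and Muc20 with epithelial scaling (-0.01); for filgotinib minus DSS vehicle, Muc13 with median scaling (0.03). Leaving out a mouse turned the sign of Muc5b in DSS vehicle against water (-0.02 to 0.62), of Muc6 (-0.08 to 0.13), Muc1 (-0.18 to 0.01), Muc13 (-0.12 to 0.00) and Muc20 (-0.17 to 0.02) in filgotinib against DSS vehicle, and of Muc4 in filgotinib against water (-0.02 to 0.09).

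Counts of all genes moved by over 1.5 times in these cases. DSS vehicle against water went from 4220 to 2522 with median scaling. Filgotinib against DSS vehicle went from 2492 to 1229 without a filter, 1276 with only both groups fitted, and 1315 or 1573 without DSS vehicle mouse 1 or 5 and 1504 or 1399 without filgotinib mouse 2 or 5. Filgotinib against water went from 2164 to 4437 with normexp, 9053 without a filter, 1197 with quantile, 1240 in the deposited table, 1416 with the mean of probes, 1079 with only both groups, 1396 with a random slide block, 971, 870 or 788 without water mouse 2, 4 or 5, and 1198 or 745 without filgotinib mouse 4 or 5.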

Other observations

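A probe that the files name Muc3a was singled out after its values were seen. It may read part of the same locus as the probes named Muc3; the gene table used for names did not settle this, so its values may be a further reading of Muc3 and not of another gene. It was well above background on all 15 arrays and gave levels of 5.05, 5.07, 5.22, 5.02 and 4.68 with water. With DSS and vehicle the levels ranged from 5.16 in mouse 5 to 6.21 in mouse 1, with a median of 5.83. With DSS and filgotinib they were 5.36, 5.47, 5.46, 6.24 and 5.59. DSS vehicle was 0.70 ± 0.20 (SE) above water (limma adjusted p = 0.0277), where the probe named Muc3 gave 0.48 and did not pass. Filgotinib was 0.62 above water (limma adjusted p = 0.0687) and differed from DSS vehicle by -0.09 (0.819). All filgotinib mice lay above all water mice, where 9.57% of all genes had no overlap of these groups. DSS vehicle mouse 5 lay within the water range.

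Markers of squamous epithelium, which borders the colon mucosa at the anal canal, were measured for 6 of 8 genes. Their summed level ranged from 3.24 to 3.42 in water, 3.52 to 3.90 in DSS vehicle and 3.27 to 3.74 in filgotinib mice. Such a sum is set mostly by the brightest markers. In DSS vehicle against water 2 of 6 were higher and 0 lower, where 10.8% of all genes were higher. These were Krt14 (1.90, limma adjusted p = 0.00148) and Dsg3 (1.12, 0.0184). Dsg3 was well above background in 3 of 5 mice of each group. Krt14 was also 2.82-fold higher in filgotinib than in water mice (limma adjusted p = 0.0148), which shared no slide. It was the 1 call of the 6 there, where 6.42% of all genes were higher. The part of the squamous markers in the mucin values was not tested.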
